A study of Homo sapiens with 6 samples.

Results

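Amino acid transporter genes of 6 solute carrier (SLC) families were followed in PANC-1 cells, an established line of human pancreatic epithelioid carcinoma. The members were all gene symbols made of SLC1A, SLC3A, SLC7A, SLC36A, SLC38A or SLC43A and a number, which gave 40 of the 60835 distinct symbols in the deposited count table. In both groups SMAD4 had been knocked out and the cells were then transfected with SMAD4, either wild type (WT) or with the R272K change, an arginine replaced by a lysine. There were 3 libraries of polyadenylated RNA per group, collected on day 3. The labels do not say whether the knockout line is 1 clone, what share of cells took up the construct, or whether replicates were separate cultures, so p-values measure the spread between these libraries, which may be technical. Knockout cells without introduced SMAD4 were not analysed here. SMAD4 is the common partner of the SMADs that TGF-β receptors activate, and the series concerns its methylation on arginine by PRMT1. The question here is how transporter transcripts stood with the substituted protein against the WT protein.

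These families move amino acids across the plasma membrane and the lysosomal membrane. SLC3A proteins are heavy chains that carry no substrate themselves. They bind a light chain of the SLC7A family by a disulphide bond and bring it to the cell surface, where the pair exchanges amino acids. SLC1A and SLC38A members use the sodium gradient to take up acidic or small neutral amino acids such as glutamine. Some SLC36A members are coupled to protons, and SLC43A1 and SLC43A2 are facilitators for large neutral amino acids. In cancer cells, import of leucine and glutamine feeds the kinase mTORC1, import of cystine feeds glutathione, and shortage of amino acids raises many transporter genes through the transcription factor ATF4.

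Sequencing depth lay between 14776148 and 17706201 counts per library, of which the members took 0.257% to 0.29%. SMAD4 transcript stood at 88.7 ± 5.13 CPM (reads per 1000000 of the scaled library size) with WT and 43.3 ± 2.56 CPM with R272K (SD, n = 3 each; log2 fold change -1.03, adjusted p = 6.28e-06 by edgeR). The amount of SMAD4 and the substitution therefore cannot be told apart in any difference below. Nor can fewer cells that express a gene be told apart from less of its RNA per cell. The counts do not separate SMAD4 RNA of the edited locus from that of the construct, and protein was not measured here. PRMT1 transcript was at 175 ± 19.8 and 175 ± 6.78 CPM (adjusted p = 0.997). All 5 epithelial markers checked were present, with summed levels of 3026 to 3770 CPM in WT and 3798 to 4106 CPM in R272K libraries. These sums came nearly all from KRT8 and KRT18. KRT7 and EPCAM were low, each with fewer counts over all libraries than the neural marker MAP2. The 4 fibroblast markers summed to 9.58 to 11.5 and 14.4 to 15.7 CPM, nearly all from COL3A1, and their part in the results was not tested. The summed leukocyte, endothelial, acinar and islet markers each lay at or below 1.06 CPM in every library. The 3 neural markers summed to 3.54 to 5.48 CPM in WT and 4.79 to 6.06 CPM in R272K libraries, mostly from MAP2. WT replicate 1 stood apart from the other 5 libraries, at -31.3 on the first principal component against -9.56 to 15.6. Relative to the mean of the remaining WT libraries, its levels were lower for longer genes (Spearman's rho -0.409 across the 15911 tested genes, themselves no replicates), while rho was 0.231 and 0.315 in WT replicates 2 and 3, whose comparison includes replicate 1, and between -0.114 and 0.0848 in the R272K libraries. That library had the lowest CPM of the 6 for 9 of 23 members and the highest for 4, where 27% and 28% of all tested genes had it as lowest and highest.

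Of the 40 members, 23 passed the filter on low counts and were tested: 3 of 7 SLC1A, 1 of 2 SLC3A, 7 of 13 SLC7A, 2 of 4 SLC36A, 8 of 11 SLC38A and 2 of 3 SLC43A genes. Among them 1, the heavy chain gene SLC3A2, fell with R272K SMAD4, 0 rose and 22 were not called at an adjusted p below 0.05 (edgeR's quasi-likelihood test, Benjamini-Hochberg over 15911 genes). Over all genes tested 1.21% were called, 0.528% lower and 0.685% higher. The median log2 fold change of the 23 was 0.03, beside 0.00 for all genes tested, with 12 members above 0 and 11 below. At an unadjusted p under 0.05 there were 5 members, SLC3A2 lower and SLC7A2, SLC1A4, SLC7A5 and SLC38A4 higher, where the background was 14.3% of all genes tested, 7.09% lower and 7.18% higher. The groups did not overlap in CPM for 7 members, beside 21.4% of all genes tested, 10.9% higher and 10.4% lower. The 4 higher of these were SLC1A4, SLC7A2, SLC7A5 and SLC7A7 and the 3 lower SLC3A2, SLC38A5 and SLC38A6. For SLC7A7 the gap was 0.919 against 0.917 CPM.

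**Figure D1:**
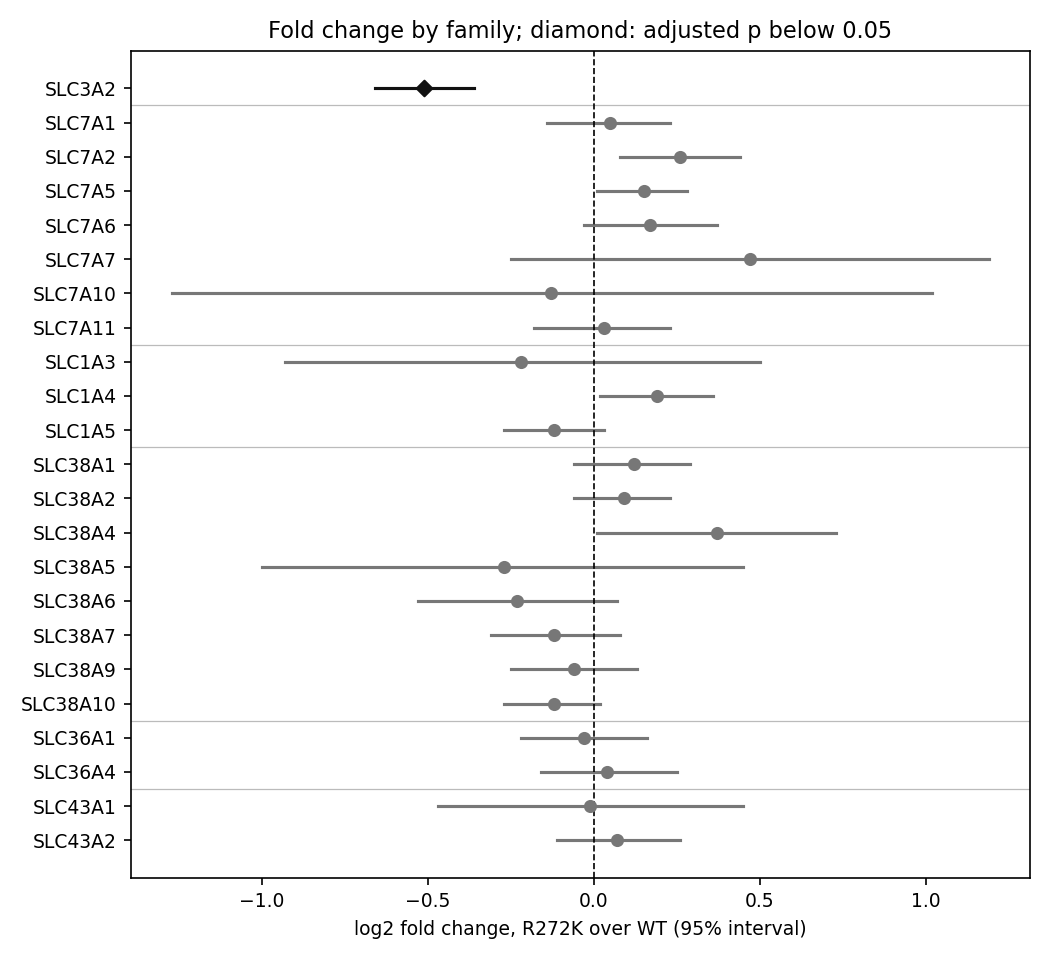
Log2 fold change of R272K over WT for the 23 tested genes, grouped by family, with bars for the 95% interval from edgeR. SLC3A2 lies at -0.51 with an interval of -0.66 to -0.36, and the intervals of SLC7A7, SLC7A10, SLC1A3 and SLC38A5, with few counts, are the widest.

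SLC3A2 (ENSG00000168003, chromosome 11, 62856004 to 62888880, GRCh38) encodes the heavy chain known as 4F2hc or CD98, which also binds integrins. Its level was 362, 336 and 314 CPM in WT replicates 1 to 3 and 237, 248 and 226 CPM in R272K replicates 1 to 3. All 3 R272K libraries lay below all 3 WT libraries, with a gap wider than the range within either group. The mean went from 338 ± 24 to 237 ± 11.1 CPM (SD, n = 3 each), and the fold change was 0.701, or -0.51 on the log2 scale with SE 0.068 (adjusted p = 0.00174). On the scale of TPM, the deposited abundance per transcript length, the mean went from 368 ± 9.18 to 262 ± 9.53. The call was made from 3464 to 6353 counts per library, and no other gene in the deposited table overlaps SLC3A2. It was kept in all 18 alternative analyses, with log2 fold changes of -0.56 to -0.46 and adjusted p from 3.42e-10 to 0.0423, the last without R272K replicate 3. Those alternatives called 0.337% to 5.36% of the genes they tested. The 5.36% came without WT replicate 1, where SLC3A2 stood at -0.46 (adjusted p = 2.41e-09).

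The promoter of SLC3A2 is shown because the gene was the member that changed, and because ATF4, AP-1 (the dimer of FOS, JUN and ATF proteins) and NRF2, regulators of stress responses, have known short binding motifs that can be looked for. RefSeq gives the gene 3 starts, and the stretch is the 250 bases before the one whose window held matches (chr11:62881449-62881698, GRCh38.p14, plus strand). It lies inside an intron of 7 of the 12 protein-coding SLC3A2 transcripts in GENCODE release 29, which begin further upstream, and 1 begins at the next base. Capitals mark a match to the AP-1 motif TGANTCA and, overlapping it, to the core of the antioxidant response element, TGACNNNGC, to which NRF2 binds.
SLC3A2 upstream: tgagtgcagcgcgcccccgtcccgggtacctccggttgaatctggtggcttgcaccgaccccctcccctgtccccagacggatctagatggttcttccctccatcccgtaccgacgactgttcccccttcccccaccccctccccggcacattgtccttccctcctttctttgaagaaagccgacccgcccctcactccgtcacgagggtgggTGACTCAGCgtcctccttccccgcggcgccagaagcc

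In windows from 250 bases before to 50 after a RefSeq start, the ATF4 composite motif TGATGNAA was matched on either strand in 3.62% of all 35116 windows. The 31 members with a window had 53 of them, and 6 of these windows, or 11.3%, held the motif, each of another member. These sites are printed on the strand of the gene with the motif in capitals, so that the members can be compared base by base. Counted from the RefSeq start of the window, the first base of the motif lies after it in SLC3A2 (38) and SLC7A1 (8). It lies before that start in SLC1A5 (-97) and SLC1A3 (-220), and also in SLC1A4 (-7) and SLC38A1 (-4), where the match runs across it. Only the SLC1A3 motif lies outside the deposited bounds of its gene, so a motif before one of these starts can still lie within the gene.
SLC3A2 (chr11:62881726-62881748): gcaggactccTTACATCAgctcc
SLC1A4 (chr2:64989382-64989409): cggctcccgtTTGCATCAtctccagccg
SLC7A1 (chr13:29595664-29595691): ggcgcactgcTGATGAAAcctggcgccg
SLC38A1 (chr12:46266503-46266530): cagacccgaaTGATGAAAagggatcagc
SLC1A5 (chr19:46784894-46784921): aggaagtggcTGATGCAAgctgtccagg
SLC1A3 (chr5:36596358-36596385): aggaaatgacTGATGCAAagcagggtta
SLC3A2 and SLC1A4 hold it on the opposite strand, so the capitals there are its reverse complement. Of these 6 genes 1 fell and 5 were not called, and their log2 fold changes ran from -0.51 to 0.19. The AP-1 motif was matched in 8 of the 53 member windows, or 15.1%, and in 7.71% of all windows. The antioxidant response element core was matched in 7 of the 53, or 13.2%, and in 13.3% of all windows. The SMAD palindrome GTCTAGAC was matched in 0 of the 53 windows and in 0.202% of all windows. A match describes these letters and is not evidence of binding.

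None of the light chain genes that pair with SLC3A2 was called, and the 5 tested had log2 fold changes of -0.13 to 0.47. SLC7A5 encodes LAT1, the exchanger that brings leucine and other large neutral amino acids into the cell. WT replicates 1 to 3 held 281, 294 and 281 CPM of it, and R272K replicates 1 to 3 held 303, 310.2 and 334 CPM. The R272K libraries lay above the WT libraries without overlap, but the difference was not called, with a log2 fold change of 0.15 (95% interval 0.01 to 0.28, adjusted p = 0.299). Without WT replicate 1 the adjusted p was 0.0591. The 95% intervals of SLC3A2, -0.66 to -0.36, and SLC7A5 did not overlap, though the difference between both genes was not itself tested. The pseudogene copies SLC7A5P1 and SLC7A5P2 had 0 counts.

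SLC7A11 encodes xCT, the antiporter that imports cystine for glutathione synthesis in exchange for glutamate. Its levels of 24.5, 30.3 and 30.4 CPM with WT and 29.7, 29.2 and 27.7 CPM with R272K overlapped (log2 fold change 0.03, 95% interval -0.18 to 0.23, adjusted p = 0.922). SLC7A6, the light chain y+LAT2, which exchanges cationic for neutral amino acids with sodium, stood at 27.2 ± 2.58 and 30.5 ± 2.29 CPM (SD, n = 3 each; log2 fold change 0.17, adjusted p = 0.442). SLC7A6OS, on the opposite strand, overlaps it and had 772 counts against 2676. The related SLC7A7 (0.47, 95% interval -0.25 to 1.19, adjusted p = 0.564) and SLC7A10, an exchanger of small neutral amino acids (-0.13, 95% interval -1.27 to 1.02, adjusted p = 0.935), had mean levels of 1.25 CPM or less in both groups. At that depth a change of the size seen for SLC3A2 lies inside the interval of SLC7A10. LRP3 overlaps SLC7A10 and had 2044 counts against 49. SLC7A8, the light chain LAT2, had 12 counts over the WT and 23 over the R272K libraries, 14 of them in R272K replicate 1, and was not tested.

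Summed as TPM, the 6 light chain genes SLC7A5, SLC7A6, SLC7A7, SLC7A8, SLC7A10 and SLC7A11 stood at 201, 231 and 226 in the WT and 236, 241 and 259 in the R272K replicates. SLC7A5 made up 88% to 90.1% of the sum in every library. The ratio of SLC3A2 to this sum was 1.86, 1.62 and 1.58 with WT and 1.11, 1.13 and 0.976 with R272K. Every R272K library was below every WT library, and the mean ratio went from 1.69 ± 0.148 to 1.07 ± 0.0826 (SD, n = 3 each). Per transcript length, the heavy chain exceeded the light chain sum by 132 to 172 TPM in WT libraries, and in R272K libraries the difference was -6.1 to 30.8 TPM. In CPM, which does not account for length, the difference was 30.6, -19.2 and -25.7 in WT replicates 1 to 3 and -166 to -127 in R272K libraries, so the sign of the WT excess depends on the scale. The ratio is a description of transcripts and was not tested. Its log2 difference of -0.66 was -0.65 on the CPM scale and -0.58 without WT replicate 1.

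**Figure D2:**
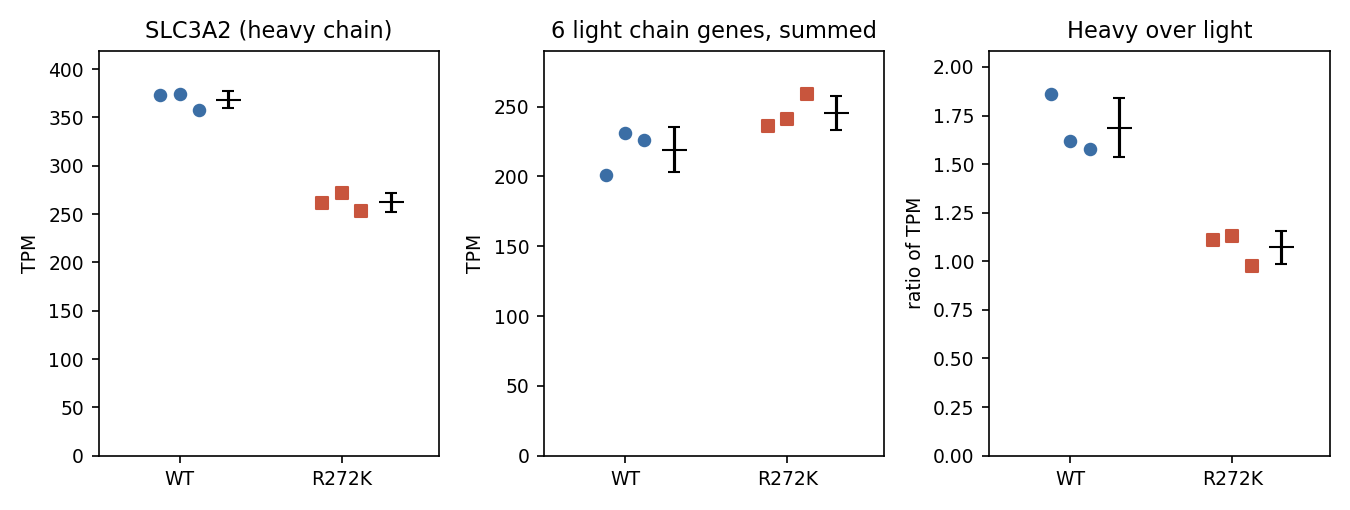
TPM of SLC3A2, summed TPM of its 6 light chain genes, and the ratio of the former to the latter, with 1 point per library and the mean with SD beside each group. The SLC3A2 mean is 368 TPM in WT and 262 TPM in R272K libraries, the light chain sums lie at 201 to 231 and 236 to 259 TPM, and the ratios do not overlap.

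The other heavy chain, SLC3A1 (rBAT), and its light chain SLC7A9, which together reabsorb cystine and dibasic amino acids in the kidney, were near absent. SLC3A1 had 10 counts over all 6 libraries, and SLC7A9 had 3, 2 and 2 counts in the WT and 0, 0 and 1 in the R272K replicates. PREPL overlaps SLC3A1 on the opposite strand with 8421 counts, so that reads of the heavy chain could be lost or gained depending on how strand was treated.

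Among the SLC7A members that work without a heavy chain, SLC7A1 and SLC7A2 import arginine and lysine. SLC7A2 had 33.5, 40.9 and 37.6 CPM with WT and 43.5, 45.6 and 44.9 CPM with R272K SMAD4. The groups did not overlap, and the difference was the next smallest p among the members, but it was not called (log2 fold change 0.26, 95% interval 0.08 to 0.44, adjusted p = 0.167). Over the alternatives its log2 fold change ran from 0.19, without WT replicate 1, to 0.33, without WT replicate 2, with adjusted p from 0.126 to 0.479. SLC7A1, the more abundant of this pair at 57.6 ± 10.1 TPM with WT and 60 ± 2.88 TPM with R272K (SD, n = 3 each), had 115, 146 and 145 CPM with WT and 134, 139.9 and 145 CPM with R272K. These ranges overlapped (log2 fold change 0.05, adjusted p = 0.841), and WT replicate 1 was the lowest library for both genes. The remaining SLC7A genes, not all of which work without a heavy chain, were SLC7A3, SLC7A4, SLC7A13 and SLC7A14. They had 15, 1, 0 and 2 counts in all.

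SLC1A4 and SLC1A5 are the neutral amino acid exchangers ASCT1 and ASCT2, of which the latter is a main route for glutamine. SLC1A4 stood at 25.6, 25.8 and 26.9 CPM with WT and at 28.7, 29.6 and 31.2 CPM with R272K. The groups were apart, without a call (log2 fold change 0.19, 95% interval 0.02 to 0.36, adjusted p = 0.282). For SLC1A5 the levels were 124, 117 and 109 CPM with WT and 107, 104 and 110.3 CPM with R272K. WT replicate 3 lay within the R272K range, and the difference was not called (log2 fold change -0.12, 95% interval -0.27 to 0.03, adjusted p = 0.449). The glutamate transporter gene SLC1A3 was low, at 1.46 ± 0.506 and 1.25 ± 0.336 CPM (SD, n = 3 each; adjusted p = 0.812). The other glutamate transporter genes SLC1A1, SLC1A2, SLC1A6 and SLC1A7 had 1 to 16 counts in all.

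SLC38A genes, the sodium-coupled neutral amino acid transporters, gave the largest summed level of the 6 families, 937 ± 122 TPM with WT and 989.6 ± 13.3 TPM with R272K (SD, n = 3 each). SLC38A2 (SNAT2), whose uptake activity rises when cells lack amino acids, had 757, 873 and 898 CPM with WT and 907, 889 and 887 CPM with R272K. Its relative SLC38A1 (SNAT1), another carrier of glutamine, had 515, 646 and 657 CPM with WT and 666, 650.1 and 651 CPM with R272K. In both genes WT replicate 1 was the low value and the other 5 libraries lay close together. The log2 fold changes were 0.09 for SLC38A2 (adjusted p = 0.614) and 0.12 for SLC38A1 (adjusted p = 0.566), and each was 0.01 without that library.

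SLC38A4 (SNAT4) was rare at 4.79, 4.6 and 6.81 CPM with WT and 7.42, 6.99 and 6.45 CPM with R272K. WT replicate 3 lay within the R272K range, and the difference was not called (log2 fold change 0.37, 95% interval 0.01 to 0.73, adjusted p = 0.344). Its fold change was 0.56 without WT replicate 3 and 0.27 without WT replicate 2, and the antisense gene SLC38A4-AS1 had 139 counts against 573. SLC38A9 senses arginine at the lysosome for mTORC1, and its levels of 31.5 ± 2.17 and 30.2 ± 2.41 CPM (SD, n = 3 each) overlapped (log2 fold change -0.06, 95% interval -0.25 to 0.13, adjusted p = 0.806). SLC38A7, a lysosomal exporter of glutamine and asparagine, stood at 22.6 ± 1.04 and 20.9 ± 1.39 CPM (-0.12, adjusted p = 0.59). SLC38A10 was at 144 ± 8.37 and 133 ± 5.84 CPM (-0.12, adjusted p = 0.43). SLC38A6 was lower in each R272K library, at 5.19 to 5.59 against 5.9 to 6.79 CPM, without a call (-0.23, adjusted p = 0.494). It overlaps TRMT5, which has 2152 counts against 543 and lies on the opposite strand. SLC38A5 was below 1 CPM in every library (adjusted p = 0.759), and SLC38A3, SLC38A8 and SLC38A11 had 1 or 2 counts in all.

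The SLC36A carriers SLC36A1 (PAT1), which lies on lysosomes and the cell surface, and SLC36A4 (PAT4) were both expressed. SLC36A4, the more abundant per length, had 53.7, 61.2 and 72.7 CPM with WT and 64.7, 63.3 and 65.1 CPM with R272K. Its WT libraries spanned the R272K libraries (log2 fold change 0.04, 95% interval -0.16 to 0.25, adjusted p = 0.874). SLC36A1 stood at 35.1 ± 0.381 and 34.3 ± 4.05 CPM (SD, n = 3 each; -0.03, adjusted p = 0.902). SLC36A2 and SLC36A3 had 6 and 5 counts in all, those of SLC36A2 from R272K replicates 1 and 3. Of the SLC43A facilitators, SLC43A2 (LAT4) had 21.7, 22 and 19.7 CPM with WT and 22.4, 22.4 and 22 CPM with R272K (0.07, 95% interval -0.11 to 0.26, adjusted p = 0.743). SLC43A1 (LAT3) was at 2.64 ± 0.191 and 2.63 ± 0.476 CPM (-0.01, adjusted p = 0.99). SLC43A3, which carries nucleobases and not amino acids, had 19 counts in all.

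Ordered by TPM, a level per transcript length, the 23 tested members spanned from SLC38A2, at 548 ± 76 TPM with WT and 587 ± 7.93 TPM with R272K, to SLC1A3, at 0.663 ± 0.255 and 0.573 ± 0.159 TPM (SD, n = 3 each). SLC3A2 came next after SLC38A2, at 368 ± 9.18 TPM with WT and 262 ± 9.53 TPM with R272K. With WT SMAD4 its 3 libraries lay above all those of SLC38A1, at 234 ± 41.4 TPM, whereas with R272K the ranges of SLC3A2 and SLC38A1 (255 ± 4.07 TPM) overlapped. SLC38A1 and SLC7A5, at 195 ± 12.2 and 218 ± 13.5 TPM, also overlapped over the 6 libraries. SLC1A5, SLC38A10 and SLC7A1 followed without overlap with their neighbours. From SLC36A1 through SLC7A2, SLC1A4 and SLC38A7 to SLC7A6, each gene overlapped the next. The 5 most abundant genes, SLC38A2, SLC3A2, SLC38A1, SLC7A5 and SLC1A5, held 81% to 81.8% of the summed TPM of the members in each library. SLC3A2 was 18.8% to 22.9% of that sum in WT and 14.1% to 15.5% in R272K libraries. The whole sum was 1801 ± 151 TPM with WT and 1775 ± 18.9 TPM with R272K, a log2 difference of -0.02. On the CPM scale it was 0.02. WT replicate 1 was the lowest library at 1627 TPM, the other WT libraries stood at 1876 and 1901 TPM above the R272K libraries at 1761 to 1796 TPM, and without WT replicate 1 the log2 difference was -0.09. The sum was not tested. Among the 13 members not called whose mean was at least 10 TPM, the 95% intervals of the log2 fold change reached no lower than -0.31 and no higher than 0.44.

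**Figure D3:**
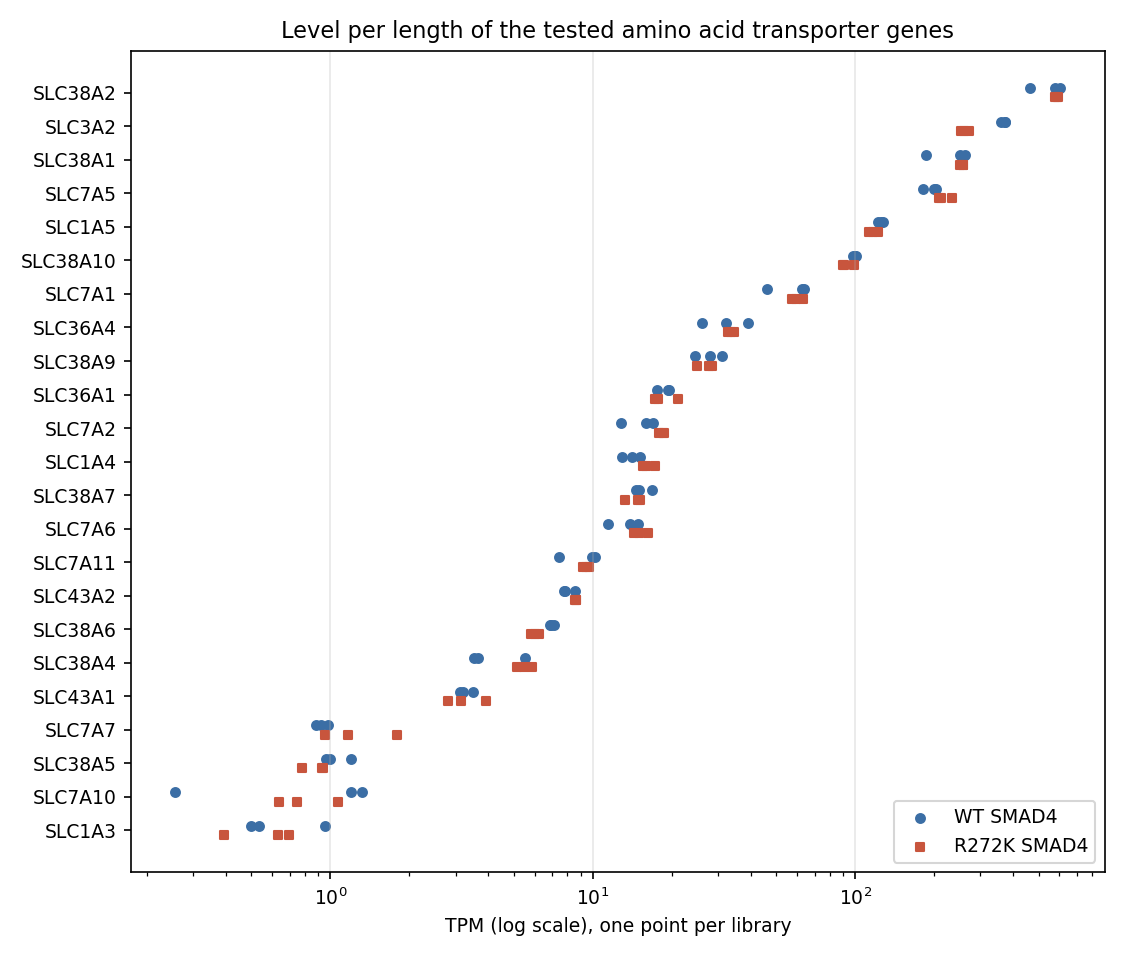
TPM of the 23 tested genes on a log axis, 1 point per library, ordered by the mean over all 6 libraries. SLC38A2 and SLC3A2 lead, WT and R272K points of SLC3A2 are apart, and WT replicate 1 is the low WT point for SLC38A2, SLC38A1 and SLC7A1.

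Genes that act with these transporters were read from 5 lists. Of 27 tested genes of ATF4 and amino acid synthesis, 3 fell, 0 rose and 24 were not called by edgeR, with a median log2 fold change of 0.07 and 13 at an unadjusted p under 0.05. Over all genes tested 1.21% were called, 0.528% lower, and 14.3% had an unadjusted p under 0.05, and the counts of each list below stand beside the same shares. DESeq2 called 1 higher and 4 lower, and limma-voom 1 higher and 3 lower. ATF3, a stress-induced transcription factor, went from 33.9 ± 2.56 to 16.6 ± 0.704 CPM (-1.03, adjusted p = 3.2e-05). DDIT3, a pro-apoptotic transcription factor also known as CHOP, went from 20.5 ± 3.72 to 11.1 ± 0.641 CPM (-0.89, adjusted p = 0.0038). PPP1R15A, which directs dephosphorylation of eIF2, went from 148 ± 6.52 to 101 ± 2.84 CPM (SD, n = 3 each; -0.55, adjusted p = 0.000471). DDIT4, an inhibitor of mTORC1, stood at 55.2 ± 9.82 and 75.8 ± 2.22 CPM (0.45, adjusted p = 0.0513). It was called higher in 11 of the 18 alternatives, among them the analysis without WT replicate 1 (0.61, adjusted p = 4.23e-09). The 3 genes that fell are regulators of the stress response. None of the enzymes of serine, asparagine or proline synthesis in the list was called by edgeR, which does not show that they were unchanged. Of the 13 genes at an unadjusted p under 0.05, only the 4 of smallest p are named here.

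For the 20 aminoacyl-tRNA synthetases, which charge tRNAs with amino acids, 0 were called and 2 had an unadjusted p under 0.05, where 14.3% of all genes did, with FARSB at -0.14 (adjusted p = 0.322). QARS1, at 0.13 (adjusted p = 0.355), was called higher without WT replicate 1 (0.16, adjusted p = 0.0475). Of 29 tested genes of amino acid sensing by mTORC1, 0 were called and 5 had an unadjusted p under 0.05. RRAGC, a GTPase that recruits mTORC1 to the lysosome, had 39.6, 32.1 and 33.5 CPM with WT and 25.5, 28.1 and 25.9 CPM with R272K (-0.41, adjusted p = 0.0561). Its groups did not overlap, and it was called lower in 7 of the 18 alternatives, among them DESeq2 (adjusted p = 0.0225), without WT replicate 1 (-0.31, adjusted p = 0.0172) and without WT replicate 3 (-0.44, adjusted p = 0.0417). Among 11 tested genes of the glutathione list 0 were called and 1 had an unadjusted p under 0.05. That gene was TXNRD1, a thioredoxin reductase rather than a glutathione enzyme, at -0.22 (adjusted p = 0.11). It was called in 2 of the 18 alternatives, and without WT replicate 1 it stood at -0.27 (adjusted p = 5.62e-06). Of 16 tested amino acid transporters of other SLC families 0 were called and 3 had an unadjusted p under 0.05, with SLC66A1, a lysosomal exporter of cationic amino acids, lowest in p (-0.29, adjusted p = 0.121). DESeq2 and limma-voom called 0 of the synthetases, glutathione genes and other transporters, and of the sensing genes RRAGC was the 1 called by DESeq2 and 0 were called by limma-voom.

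**Figure D4:**
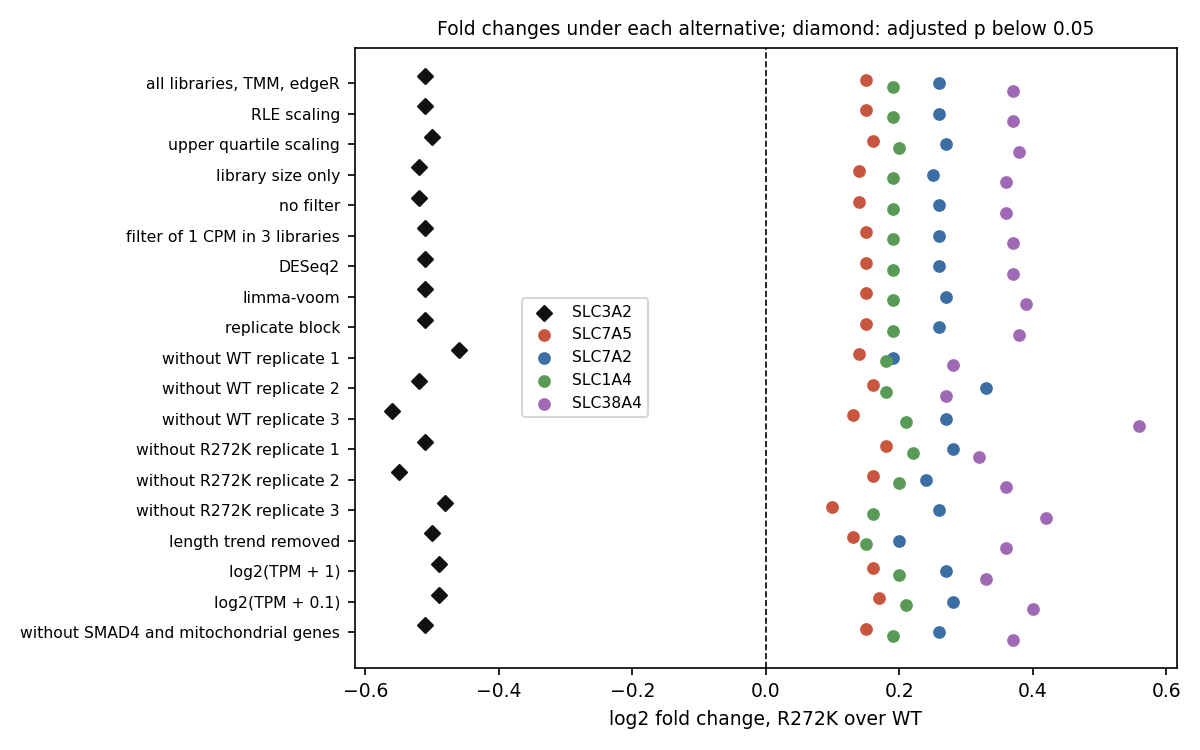
Log2 fold change of R272K over WT for the 5 members with an unadjusted p under 0.05, in the reported analysis and in each of the 18 alternatives, with diamonds where the adjusted p was below 0.05. SLC3A2 stays between -0.56 and -0.46 and is called in each, while SLC7A5, SLC7A2, SLC1A4 and SLC38A4 lie above 0 and are called in none.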

How the data were processed

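Per the submitters' processing notes, the tools named are fastp (version 0.23.0), HISAT2 (2.1.0), SAMtools and HTSeq (0.10.0), and the build was GRCh38. The annotation release and the use of strand in counting are unknown here. The authors deposited 2 tables by gene symbol. The deposited count table holds raw whole-number read counts. The deposited TPM table is treated as a score because symbols repeated on 1875 extra lines push its sums above 1000000. Each symbol was taken once, after which TPM summed to 1000000. Samples were grouped by title.

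After edgeR's filter (minimum count 10, minimum total 15) 15911 genes remained. TMM-scaled counts entered a robust quasi-likelihood test in edgeR (two-sided, group as the only term), with Benjamini-Hochberg adjustment over all of them. The SE is the size of the log2 fold change over the square root of F, and 95% intervals use a t quantile. Data for this comparison were simulated with 15911 genes. Of 50 genes with a 1.5-fold change 68% were recovered, and of 50 with a 2-fold change 88%. False calls were 9 of 185. Changed genes were drawn from those with a mean above 1 CPM, and no trend with gene length was simulated. The rates therefore do not describe genes of lower counts or the length trend of WT replicate 1. Replicates of a group differed beyond sampling noise (lowest chi-square per degree of freedom 1.85).

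The members and gene lists were chosen with earlier results of these data known. Any member could be named. Per-library values were required for members called or at an unadjusted p under 0.05 and for the most abundant member of each family, and they are given for some others. From each related list up to 4 genes of smallest p could be named. The names SAMTOR and SLC66A4 matched no symbol, though a gene may stand under another name. Promoter windows came from RefSeq (GRCh38.p14) and were found by symbol for 31 of 40 members. The 18 alternatives changed the scaling (RLE, upper quartile, library size only), the filter (none, or 1 CPM in 3 libraries), the tool (DESeq2 or limma-voom) or the samples (each left out in turn). They also added the replicate number as a block, removed each library's trend with gene length, or used limma on TPM after log2 with a pseudocount of 1 or 0.1. Leaving SMAD4 and mitochondrial genes out of the test, and recomputing the ratio and the sum without WT replicate 1, were chosen after seeing the data. Software versions were R 4.3.3 with edgeR 4.0.16, DESeq2 1.42.0 and limma 3.58.1, and Python 3.11.15 with pandas 2.3.3, numpy 2.4.6 and matplotlib 3.10.9.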

Additional observations from a re-analysis of the deposited data

How the results depend on the processing

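In each of the 18 alternatives 1 member was called lower, SLC3A2, and 0 higher. The count over all genes, 193, was 474 with no filter, 502 with the length trend removed, 104 on log2(TPM + 1) and 101 on log2(TPM + 0.1). Leaving out 1 library gave 55 to 875 genes, with 875 without WT replicate 1, 84 without WT replicate 2, and 59, 60 and 55 without R272K replicates 1, 2 and 3. Signs were compared over the alternatives that gave each member an adjusted p (16 for SLC7A7, SLC7A10 and SLC38A5, 17 for SLC1A3 and 18 for the rest). DESeq2 gave none for these 4 genes, so their signs there were not compared. The sign was the same for 15 members and reversed for 8, none of which was called. With 1 library left out, log2 fold changes that changed sign ranged from -0.38 to 0.09 for SLC1A3, -0.06 to 0.10 for SLC7A1, -0.59 to 0.22 for SLC7A10, -0.07 to 0.08 for SLC7A11, -0.14 to 0.02 for SLC36A1, -0.06 to 0.16 for SLC36A4, -0.10 to 0.01 for SLC38A9, -0.16 to 0.10 for SLC43A1 and -0.07 to 0.10 for PRMT1. Without the length trend SLC7A1 was -0.0026, SLC7A11 -0.04 and SLC43A1 0.01. SLC43A1 was 0.0019 with upper quartile scaling, 0.0024 on log2(TPM + 1) and 0.0006 on log2(TPM + 0.1). SLC7A10 was 0.11 with limma-voom and 0.05 on log2(TPM + 0.1), and PRMT1 -0.01 with library size only and -0.0022 with no filter. The cause of these reversals was not tested. Same-numbered libraries did not deviate together (r = -0.065, -0.00715 and -0.012 across genes). This cannot show whether the numbers pair the samples, because the WT deviations are from a mean that includes the outlying WT replicate 1. With the replicate block 262 genes were called, and SLC3A2 stood at -0.51 (adjusted p = 0.000149). The low counts of SLC7A7, SLC7A10, SLC1A3, SLC38A5 and the 17 untested members limit what can be said of them.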
